A study of Mus musculus with 4 samples.

Results

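The genes described here are 10 leukocyte adhesion molecules and chemokines of the endothelium, chosen by name: Selp, Sele, Vcam1, Icam1, Icam2, Cxcl1, Cxcl12, Ccl2, Cx3cl1 and Il6. They were read in single cells sorted from the mouse aorta. Of the 18767 genes listed, 9 of these 10 had a row. Il6 had none, and only its promoter sequence is described here. The values come from 824 cells with more than 1200 genes detected, out of 991 cells in 4 libraries. Of these libraries, 2 were labelled Jag1 ECKO and 2 were labelled Jag1 ECWT. Jag1 ECKO stands for mice with floxed Jag1 alleles and a tamoxifen-inducible Cre recombinase driven by the endothelial Cdh5 promoter, on a C57BL/6J background. Jag1 ECWT stands for the control mice, which carried the same floxed alleles without Cre. Per the study's methods, tamoxifen was used to activate Cre, the aorta was taken from the root to the iliac artery and digested with enzymes at body temperature, and viable CD31+ CD45- cells were sorted into plates. The sort takes out cells with CD45 on their surface, which is carried by leukocytes. Nothing in the labels says how many mice went into a library.

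Circulating leukocytes leave the blood in steps. Selectins on the endothelial surface (P-selectin from Selp and E-selectin from Sele) catch rolling leukocytes, chemokines bound to or shed from the endothelium activate leukocyte integrins, and immunoglobulin-family ligands (VCAM-1, ICAM-1 and ICAM-2) hold the cell through those integrins. ICAM-2 and stored P-selectin are made by resting endothelium, while E-selectin, VCAM-1, ICAM-1, CXCL1, CCL2 and interleukin-6 are classical targets of the transcription factor NF-kB after exposure to inflammatory cytokines. In the artery wall these molecules are studied for the recruitment of monocytes in atherosclerosis.

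Promoter sequences were at hand in RefSeq for 7 of the 10 genes (Icam1, Sele, Selp, Cxcl1, Cxcl12, Cx3cl1 and Il6). The sequences of Icam1, Sele and Cxcl1 are shown as examples with a match to the short motif GGANNTTCC. That of Selp, the gene with the highest level, is shown as one without. Cxcl12 and Cx3cl1, which had lower levels, held no match either. Each runs 5′ to 3′ on the plus strand of GRCm38.p6, from 250 bases before to 50 bases after the RefSeq start, and capitals mark matches to GGANNTTCC or to the NF-kB consensus of 10 letters. Both motifs were searched on both strands, and every match to the first one in Cxcl1 and Il6 lies inside a match to the second.
Icam1, at chr9:21015690-21015989: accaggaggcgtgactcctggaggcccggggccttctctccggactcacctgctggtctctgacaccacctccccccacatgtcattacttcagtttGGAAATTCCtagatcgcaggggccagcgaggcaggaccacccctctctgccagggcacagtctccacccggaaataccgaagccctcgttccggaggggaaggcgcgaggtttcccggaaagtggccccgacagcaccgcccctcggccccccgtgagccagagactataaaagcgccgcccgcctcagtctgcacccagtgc
Sele, at chr1:164047984-164048283: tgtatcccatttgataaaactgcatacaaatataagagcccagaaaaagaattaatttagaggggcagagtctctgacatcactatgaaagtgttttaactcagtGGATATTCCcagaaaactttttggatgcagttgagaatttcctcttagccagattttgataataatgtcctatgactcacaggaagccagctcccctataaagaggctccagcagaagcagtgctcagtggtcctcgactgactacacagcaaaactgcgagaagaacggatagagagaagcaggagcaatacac
Selp, at chr1:164115014-164115313: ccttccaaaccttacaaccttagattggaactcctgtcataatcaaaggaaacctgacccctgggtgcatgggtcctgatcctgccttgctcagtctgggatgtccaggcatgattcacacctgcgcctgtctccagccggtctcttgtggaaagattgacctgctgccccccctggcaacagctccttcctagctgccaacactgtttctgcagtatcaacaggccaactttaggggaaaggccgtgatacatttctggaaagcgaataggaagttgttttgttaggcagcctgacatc
Cxcl1, at chr5:90890995-90891294: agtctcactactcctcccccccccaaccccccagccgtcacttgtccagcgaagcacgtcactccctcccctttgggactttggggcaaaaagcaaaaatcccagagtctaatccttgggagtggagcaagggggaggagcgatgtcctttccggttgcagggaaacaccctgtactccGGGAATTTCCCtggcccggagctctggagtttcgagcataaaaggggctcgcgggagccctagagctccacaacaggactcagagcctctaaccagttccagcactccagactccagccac

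The match GGAAATTCC in Icam1 began 153 bases before the start, the match GGATATTCC in Sele began 145 bases before it, and the match GGAATTTCC in Cxcl1 began 70 bases before it. GGANNTTCC was found in 4 of the 7 promoters (Icam1, Sele, Cxcl1 and Il6) and in 4.26% of the 32851 mouse promoters of the same length. The longer consensus was found in Cxcl1 and Il6, and in 8.46% of all promoters. The windows of Selp, Cxcl12 and Cx3cl1 held neither string. A match of letters is a description of the sequence and says nothing about binding.

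The libraries were of similar size. After the filter they held 140 to 246 cells, a median of 4212 to 6518 counts per cell and 859280 to 1779042 counts in all. Every count stands for 1 transcript molecule read at its 3′ end, so that counts per 1000000 counts of the library (CPM) can be compared between genes with no correction for length. Most of the cells carried endothelial markers. Pecam1, which encodes CD31 and was used for the sort, had 4705 ± 131 CPM (SD, n = 4 libraries), and 97.1% of the cells held a count of Vwf. Clustering gave 794 cells in 13 endothelial (EC)-like clusters and 30 cells in 1 fibroblast or vascular smooth muscle cell (VSMC)-like cluster. Markers of other cell types were also found in EC-like cells, with Acta2 (VSMC) in 56.7% and Dcn (fibroblast) in 43.1% of them. Whether these counts come from the cells themselves or from RNA of other cells was not tested. The 14 leukocyte markers in the table, all with at least 1 count in some library, summed to between 2.95 and 18.8 CPM per library, and the 5 platelet markers to between 2.81 and 9.31 CPM. Barcodes name plate wells, so libraries share them by design, and 324 of 373 occurred in more than 1 library.

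Jag1, the targeted gene, went against the labels. Its level was 158 and 70.8 CPM in the libraries labelled Jag1 ECKO and 32.6 and 26.1 CPM in those labelled Jag1 ECWT. Both libraries labelled as deleted thus stood above both controls. The log2 fold change was 1.96 (SE 0.37), with an adjusted p of 0.428 by edgeR's quasi-likelihood test over all genes. The call depended on the fit. DESeq2 gave an adjusted p of 0.0497, and edgeR gave 1.34e-09 with no low-count filter, 2.42e-04 without ECKO replicate 1 and 8.09e-20 without ECKO replicate 2, with a log2 fold change of 1.36 to 2.42 over all alternatives run. The reads come from the 3′ end of the transcript and the sources used here do not say which exons were floxed, so this count may not report the deletion, and a mix-up of the labels was not tested. The study also examined the deletion by qRT-PCR and by staining of the aorta, which are not analysed here. Below, a direction between groups is therefore one between libraries labelled Jag1 ECKO and libraries labelled Jag1 ECWT.

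**Figure D1:**
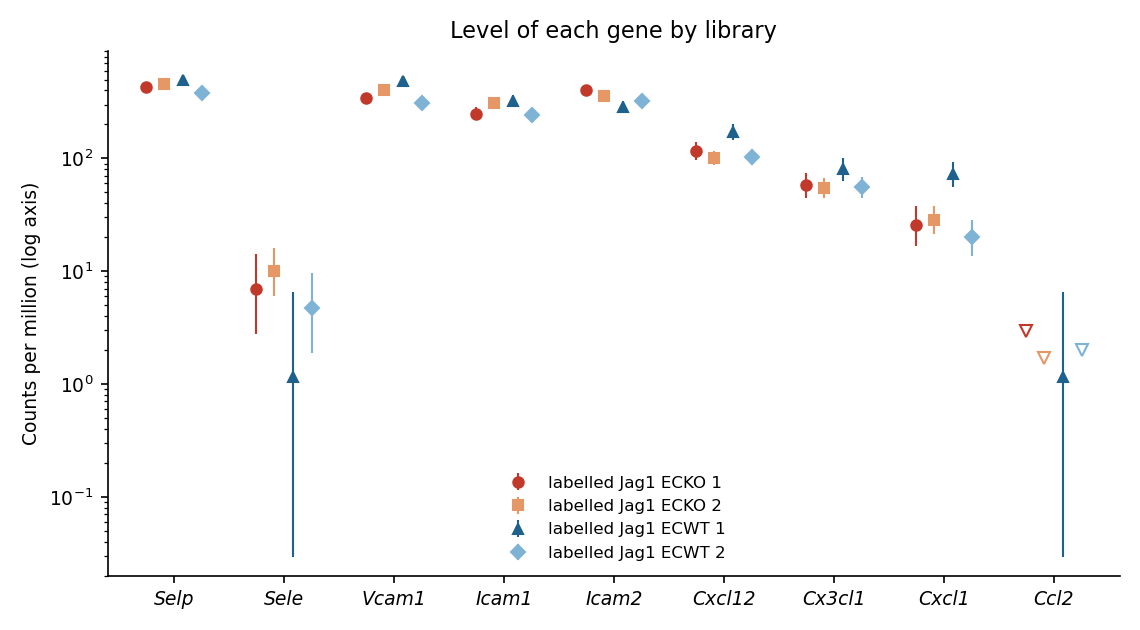
Level of 9 genes in each library in CPM on a log axis, with exact Poisson 95% intervals, which cover counting error only. Open triangles mark libraries with no count, placed at the level of 3 counts. Selp, Vcam1, Icam2 and Icam1 lie between 241 and 496 CPM in every library, while Sele and Ccl2 stay below 11 CPM.

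Selp, which encodes P-selectin, was the most abundant of these genes. It lies on chromosome 1 (164115264 to 164150026, plus strand, GRCm38). Its level was 425 and 455 CPM in the libraries labelled Jag1 ECKO and 496 and 383 CPM in those labelled Jag1 ECWT. The mean was 440 ± 47.8 CPM (SD, n = 4). The highest and the lowest library both carried the ECWT label, so the groups overlapped. Selp was found in 568 cells, 68.9% of all, and the fold change between labels was 0.03 on the log2 scale (SE 0.18, 95% interval -0.39 to 0.45).

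Sele, the gene of E-selectin, lies beside it on chromosome 1 (164048234 to 164057677, plus strand) and was nearly absent. It gave 7 and 18 counts in the libraries labelled Jag1 ECKO and 1 and 7 counts in those labelled Jag1 ECWT, or 6.89, 10.1, 1.16 and 4.69 CPM. These 33 counts came from 12 cells, 1.46% of all, and 93.9% of them from 10 cells. Both ECKO-labelled levels stood above both ECWT-labelled ones, but every library had at most 4 cells with Sele and the Poisson intervals overlapped. Without the cell with the most Sele in each library, the levels were 1.98 and 3.95 CPM against 0 and 2.03 CPM, and the labels overlapped. Of all genes tested, 16% had both ECKO-labelled libraries above both others. Sele did not pass the filter on low counts, and an exact permutation test of 2 against 2 libraries cannot give a p below 0.333. One cell of the second ECKO-labelled library held 11 of the Sele counts, and the same cell held 39 counts of Selp, the highest in any cell, and 8 of Icam1.

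Vcam1, the ligand of integrin α4β1, followed Selp in mean level. The gene lies on chromosome 3 (116109949 to 116129688, minus strand). It had 342 and 407 CPM in the libraries labelled Jag1 ECKO and 484 and 308 CPM in those labelled Jag1 ECWT, with a mean of 385 ± 77.9 CPM. The 2 ECWT-labelled libraries again held the highest and the lowest value. Vcam1 was uneven across cells. A single cell of the second ECKO-labelled library held 94 counts, 13% of that library's Vcam1, and without it the library had 357 CPM. The 10 cells with the most Vcam1 held 16.8% of its counts. Its fold change between labels was -0.04 (SE 0.23, interval -0.57 to 0.49).

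Icam1, the ligand of the β2 integrins LFA-1 and Mac-1, lies on chromosome 9 (21015985 to 21028817, plus strand). It had 249.99 and 309 CPM in the libraries labelled Jag1 ECKO and 325 and 241 CPM in those labelled Jag1 ECWT (mean 281 ± 42 CPM). The order of the libraries was the same as for Vcam1 and Selp, with ECWT replicate 1 highest and ECWT replicate 2 lowest. The fold change was 0.02 (SE 0.21, interval -0.46 to 0.51). The cell with the most Icam1 held 46 counts of it beside 24 of Vcam1, 32 of Selp and 5 of Sele among 10121 counts in all.

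Icam2, a second LFA-1 ligand, lies on chromosome 11 (106377656 to 106388075, minus strand) and was the most evenly spread. It was found in 634 cells, 76.9% of all, and no cell held more than 13 counts. Its level was 405 and 360 CPM in the libraries labelled Jag1 ECKO and 285 and 324 CPM in those labelled Jag1 ECWT (mean 343 ± 50.9 CPM). The labels did not overlap, with both ECKO-labelled libraries above both others, as for 16% of all genes tested. The fold change was 0.34 (SE 0.17, interval -0.06 to 0.74), with an unadjusted p of 0.0886 and an adjusted p of 0.900 by edgeR. Thinned to the matched depth it was 0.55 (SE 0.19, adjusted p 0.955). At that depth Icam2 was found in 64.9% and 61.1% of cells of the libraries labelled Jag1 ECKO. In those labelled Jag1 ECWT it was found in 51.2% and 56.8% of cells. These shares come from the same counts and did not overlap either, but how many of all genes do so was not worked out. Summed dissociation response genes were also highest in the first ECKO-labelled library, at 7430 CPM against 5135 to 5669 CPM in the other 3. Without the cluster led by such genes, whose 29 cells all came from that library, the fold change of Icam2 was 0.31. At the matched depth Icam2 was found in 58.4% of cells above and 58.6% of cells below the within-library median of these genes. Such a split within libraries says nothing about a difference between them. The part of these genes in the Icam2 difference was not tested.

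Among the chemokines, Cxcl12 was the most abundant. It signals through CXCR4 and retains haematopoietic cells, and the gene lies on chromosome 6 (117168535 to 117181367, plus strand). Its level was 117 and 101 CPM in the libraries labelled Jag1 ECKO and 172 and 103 CPM in those labelled Jag1 ECWT (mean 123 ± 33.4 CPM), in 26.3% of the cells. ECWT replicate 1 was highest, and the Poisson intervals of the other 3 libraries overlapped. The fold change was -0.29 (SE 0.25, interval -0.86 to 0.27), and it was 0.06 without that library.

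Cx3cl1 encodes fractalkine, a chemokine that is made as a membrane protein and also acts as an adhesion molecule for monocytes. The gene lies on chromosome 8 (94772009 to 94782427, plus strand). It had 58.1 and 55.1 CPM in the libraries labelled Jag1 ECKO and 80.3 and 55.6 CPM in those labelled Jag1 ECWT (mean 62.3 ± 12.1 CPM), in 22.9% of the cells. ECWT replicate 1 was again highest, and the other 3 libraries lay within their Poisson intervals of each other. The fold change was -0.22 (SE 0.23, interval -0.76 to 0.32).

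Cxcl1, a neutrophil chemoattractant acting on CXCR2, varied most between libraries among the chemokines with more than 1 count. The gene lies on chromosome 5 (90891241 to 90893115, plus strand). It gave 26 and 51 counts (25.6 and 28.7 CPM) in the libraries labelled Jag1 ECKO and 63 and 30 counts (73.3 and 20.1 CPM) in those labelled Jag1 ECWT. One cell of ECWT replicate 1 held 28 of its 63 counts, and without that cell the library had 41.5 CPM. Cxcl1 was found in 80 cells, 9.71% of all, and the 10 cells with most of it held 47.1% of its counts. The fold change of -0.65 (SE 0.51, interval -1.83 to 0.53) turned to 0.42 without ECWT replicate 1 and was -1.35 without ECWT replicate 2.

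Ccl2, the monocyte chemoattractant MCP-1, lies on chromosome 11 (82035571 to 82037453, plus strand). It gave a single count in 1 cell of ECWT replicate 1, among 824 cells. The 3 libraries at 0 allow a share of up to 1.22% to 1.49% of cells with a count when set at 3 cells of the total (exact binomial upper limits 1.49% to 1.81%).

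In the order of mean levels, Selp stood above Vcam1 in 4 of 4 libraries, although their ranges over libraries overlapped. Vcam1 and Icam2 were not separated, with Vcam1 higher in 2 of 4 libraries, and Icam2 exceeded Icam1 in 3 of 4. From Icam1 downwards the order Icam1, Cxcl12, Cx3cl1, Cxcl1 and Sele was kept in each of the 4 libraries, with 2.28-fold more Icam1 than Cxcl12. The ranges of Cx3cl1 and Cxcl1 over libraries still overlapped.

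None of the tested members passed the test between the labels. Of the 7 members that passed the filter on low counts, 0 had an adjusted p below 0.05 by edgeR's quasi-likelihood test and 0 had an unadjusted p below 0.05. Of all 9730 genes tested, 0% were called after adjustment and 4.78% had an unadjusted p below 0.05. With no low-count filter, Cxcl1 had an unadjusted p of 0.0461 and an adjusted p of 0.933 by edgeR. In that fit 4.91% of all genes had an unadjusted p below 0.05. DESeq2 called 0 members and 2 genes of all tested, Jag1 and Nr2f2. The ECKO-labelled libraries stood above both others for Icam2, beside 16% of all genes tested, and no tested member stood wholly below, beside 19.4% of all genes. The intervals leave room for differences of up to 0.45 to 0.74 on the log2 scale for the 4 abundant adhesion genes and down to -1.83 for Cxcl1. These p-values measure the spread between libraries, which may be technical.

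**Figure D2:**
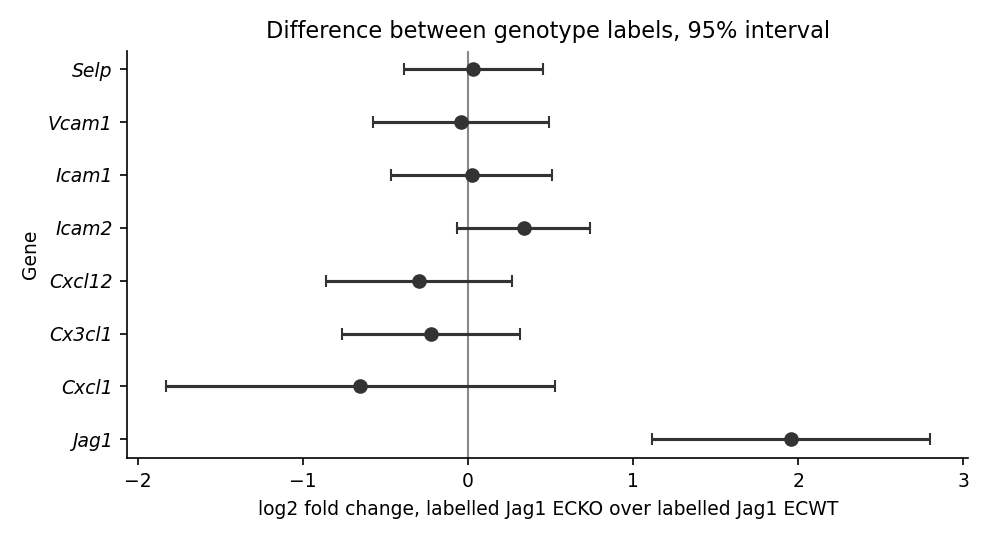
log2 fold change of 7 genes and of Jag1 between the libraries labelled Jag1 ECKO and those labelled Jag1 ECWT, with 95% intervals from edgeR (2 libraries per label). Intervals of all 7 genes span 0, and that of Jag1 lies between 1.11 and 2.80.

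Shares of cells were compared at a matched depth, since deeper cells show more genes. Each cell was taken down to 2837 counts, which left 742 cells. At this depth Icam2 was found in 58.5 ± 5.86% of cells (SD, n = 4 libraries), Selp in 56.4 ± 2.96%, Vcam1 in 49.98 ± 1.25% and Icam1 in 45.7 ± 2.96%. Cxcl12 followed with 17.9 ± 1.78%, Cx3cl1 with 14.02 ± 2.88%, Cxcl1 with 5.48 ± 1.34% and Sele with 0.969 ± 0.443%. Icam2 was therefore found in more cells than Selp in the mean over libraries although its level was lower. The share of Vcam1 varied little, from 48.8% to 51.2% of cells, while its level varied 1.57-fold between libraries.

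The share was set against the one that evenly spread counts of the same mean would give. For Icam2 this was 61.6%, close to the 58.5% found. For Selp it was 70.0% against 56.4%, for Vcam1 65.5% against 49.98% and for Icam1 53.7% against 45.7%. The widest relative gaps were those of Cxcl12 (30.4% against 17.9%), Cxcl1 (8.84% against 5.48%) and Sele (1.60% against 0.969%). The counts of Selp, Vcam1, Cxcl12, Cxcl1 and Sele were thus concentrated in fewer cells than those of Icam2.

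**Figure D3:**
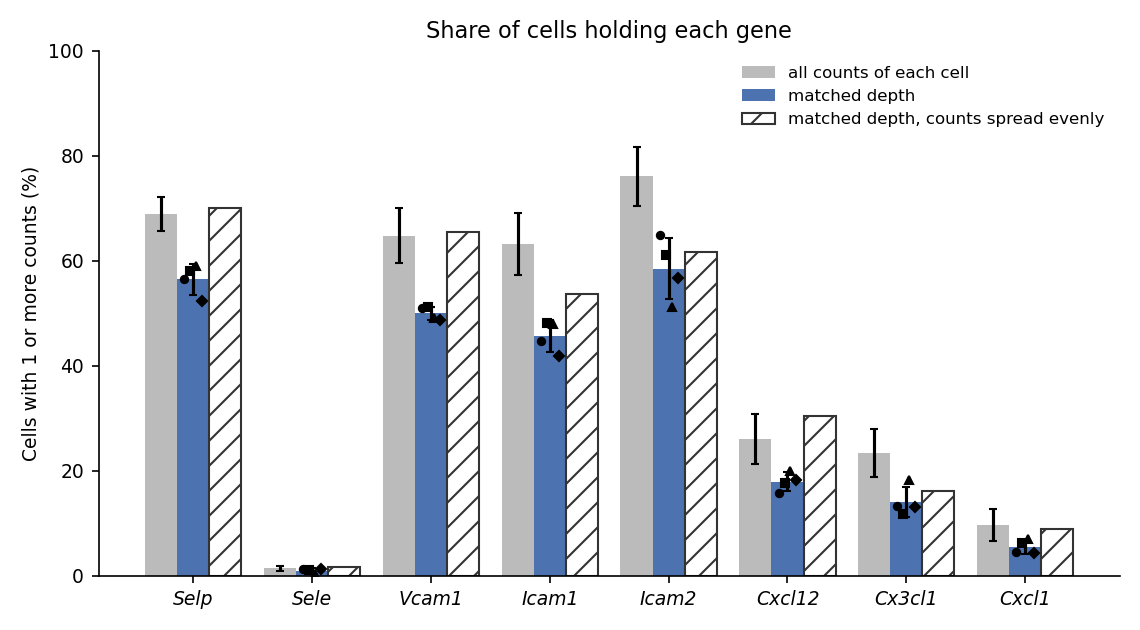
Share of cells with 1 or more counts of each gene, as the mean over 4 libraries with SD (points are libraries), with all counts, at the matched depth of 2837 counts, and as given by evenly spread counts of the same mean. At the matched depth, Icam2 (58.5% against 61.6%) and Cx3cl1 lie within 1 SD of even spread, and Selp, Vcam1, Icam1, Cxcl12 and Cxcl1 fall short of it by more than 1 SD.

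Before thinning, 45.5% of cells held 4 or more of the 8 members other than Ccl2, the median was 3 members, and 17 of 824 cells held none. Co-detection was then measured at the matched depth, where a pair's number of cells was compared with the product of both shares within each library. Of 36 pairs, 21 had 5 or more cells by that product. Their ratios ran from 0.860 to 1.59 with a median of 1.04, 17 of 21 were above 1, and 9 were above 1 in all 4 libraries. Values are given without a test, since cells are not replicates.

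Cxcl1 and Cxcl12 had the highest ratio. They were found together in 11.3 cells against 7.15 by the product, 1.59-fold, with 2.08 and 1.48 in the libraries labelled Jag1 ECKO and 1.33 and 1.67 in those labelled Jag1 ECWT. Selp and Cxcl1 met in 29.3 cells against 22.5 (ratio 1.30), and Vcam1 and Cxcl1 in 24.5 against 19.9 (1.23). Both ratios were above 1 in all 4 libraries. Vcam1 and Cx3cl1 had a ratio of 1.18 and Selp and Cxcl12 one of 1.14, again above 1 in all 4. The most numerous pairs were near 1. Vcam1 and Icam1 met in 180 cells against 169 (1.07), and Icam2 and Selp in 251 against 245 (1.02).

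Icam2 was a partner in both pairs with the lowest ratios. Icam2 and Cxcl1 were found together in 20.05 cells against 23.3 (0.860), below 1 in 3 of 4 libraries, and Icam2 and Cxcl12 in 71.5 against 77.4 (0.924), also below 1 in 3 of 4. With all counts and no thinning these ratios were 1.01 and 0.998, and the median of the 21 pairs was 1.08.

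**Figure D4:**
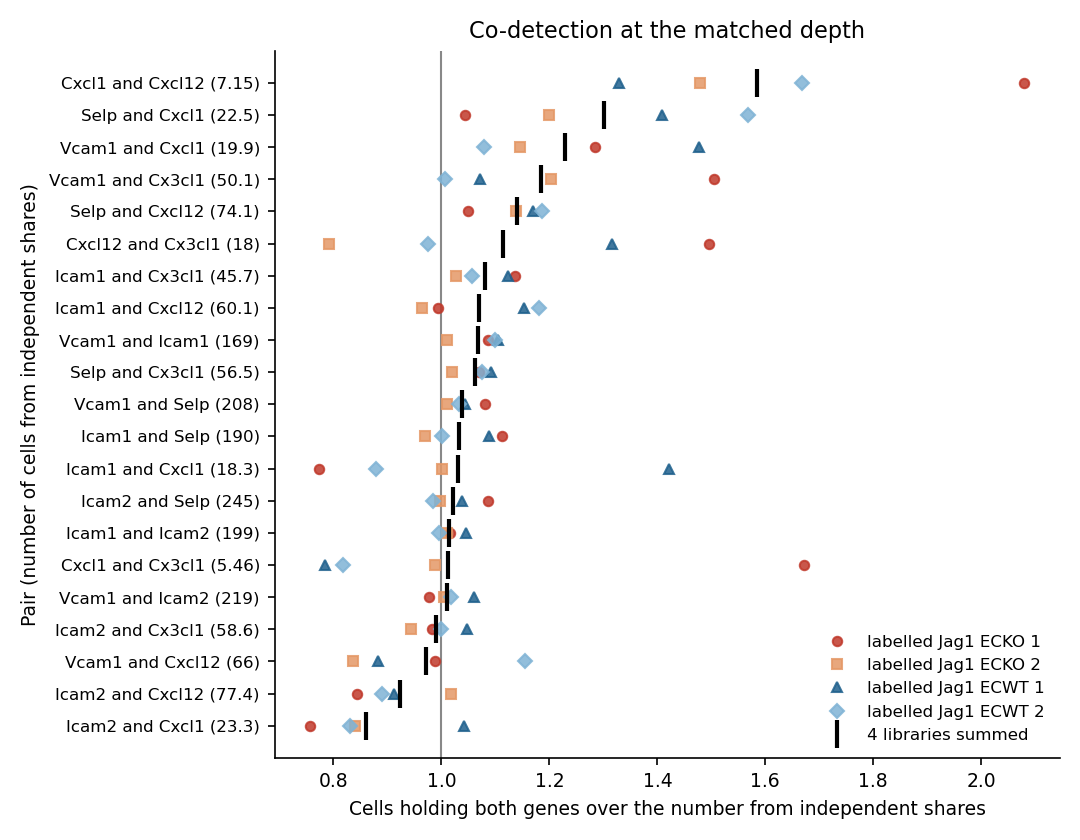
Number of cells holding both genes of a pair at the matched depth, divided by the number from independent shares within each library, for 21 pairs. Coloured points are libraries and black bars the sum of 4 libraries, from 0.860 for Icam2 and Cxcl1 to 1.59 for Cxcl1 and Cxcl12.

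The members were not spread alike over the 14 clusters. The clustering used 2000 variable genes, 7 of the members among them, so the cluster levels are a description. Cxcl1 was highest in a cluster of 74 cells led by Dcdc2a, Atp1b1, Tyro3, Plxdc2 and Cd74. There it had 144 CPM against a median of 7.45 CPM over the EC-like clusters, and the cluster held 55.3% of all Cxcl1 counts. The same cells had the highest Selp (809 CPM, in 93.2% of them), 327 CPM of Cxcl12, 591 CPM of Vcam1 and 376 CPM of Icam1. The Cxcl1 level in this cluster was 143 and 68.9 CPM in the libraries labelled Jag1 ECKO and 399 and 88.9 CPM in those labelled Jag1 ECWT. It exceeded the level over all cells in each of the 4 libraries. The cell with 28 Cxcl1 counts, which also held 25 of Cxcl12, lay here, and without it the cluster had 103 CPM. These cells were also deep, with a median of 8049 counts.

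Cxcl12 reached its highest level elsewhere. A cluster of 17 cells led by Gpihbp1, Igfbp3 and Cd36, genes known from capillary endothelium, had 1301 CPM of Cxcl12 against a median of 51.0 CPM, and held 15% of all its counts. Of those cells 11 had a count of Cxcl12, and they came from all but ECWT replicate 2, which had 1 cell there at 0. The same cluster had the lowest levels among EC-like clusters of Vcam1 (86.7 CPM), Icam1 (43.4 CPM), Icam2 (130 CPM) and Selp (101 CPM), each from 3 to 9 counts, and no count of Cxcl1 or Sele.

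Sele was highest in a cluster of 32 cells led by Lrg1, Fabp4, Pde2a and Nr2f2, the last a transcription factor of venous endothelium. It had 96.0 CPM there, 51.5% of all Sele counts, but these were in 3 cells, and 35.6 CPM were left without the cell that held 11. Selp in that cluster was 519 CPM, and 315 CPM without the same cell. Of these 32 cells, 18 and 9 came from the libraries labelled Jag1 ECKO and 3 and 2 from those labelled Jag1 ECWT. The summed capillary or venous markers were likewise highest in the first ECKO-labelled library, at 964 CPM against 213 to 301 CPM in the others, and their part in the Sele levels was not tested.

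The other genes differed less between clusters than Sele, Cxcl1 and Cxcl12. Vcam1 was highest at 672 CPM in a cluster of 56 cells led by Ifit1, Pthlh, Hbegf and Klk10, 1.90 times its median. In the cluster with the Cxcl1 cells it had 458 CPM without the cell with 94 counts. Icam1 was highest at 382 CPM in a cluster of 31 cells led by Coch and Adra2a, and had 222 CPM there without the cell with 46 counts, so that this rank rests on 1 cell. Icam2 was highest at 471 CPM in a cluster of 29 cells led by Nr4a1, Junb and Egr1, all from ECKO replicate 1. Cx3cl1 was highest at 106 CPM in a cluster of 94 cells led by Vcan and Nog, 1.57 times its median. When the members were kept out of the genes used to cluster, the highest clusters of Selp, Sele, Vcam1, Icam1, Cxcl1, Cxcl12 and Cx3cl1 kept most of their leading genes, with 826, 96.0, 672, 368, 136, 1301 and 111 CPM. Klk10 was no longer among the leading genes of the Vcam1 cluster. Icam2 was then highest at 453 CPM in a cluster of 65 cells led by Nr4a1, Beta-s and Junb, of which 55 and 3 came from the libraries labelled Jag1 ECKO and 4 and 3 from those labelled Jag1 ECWT.

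**Figure D5:**
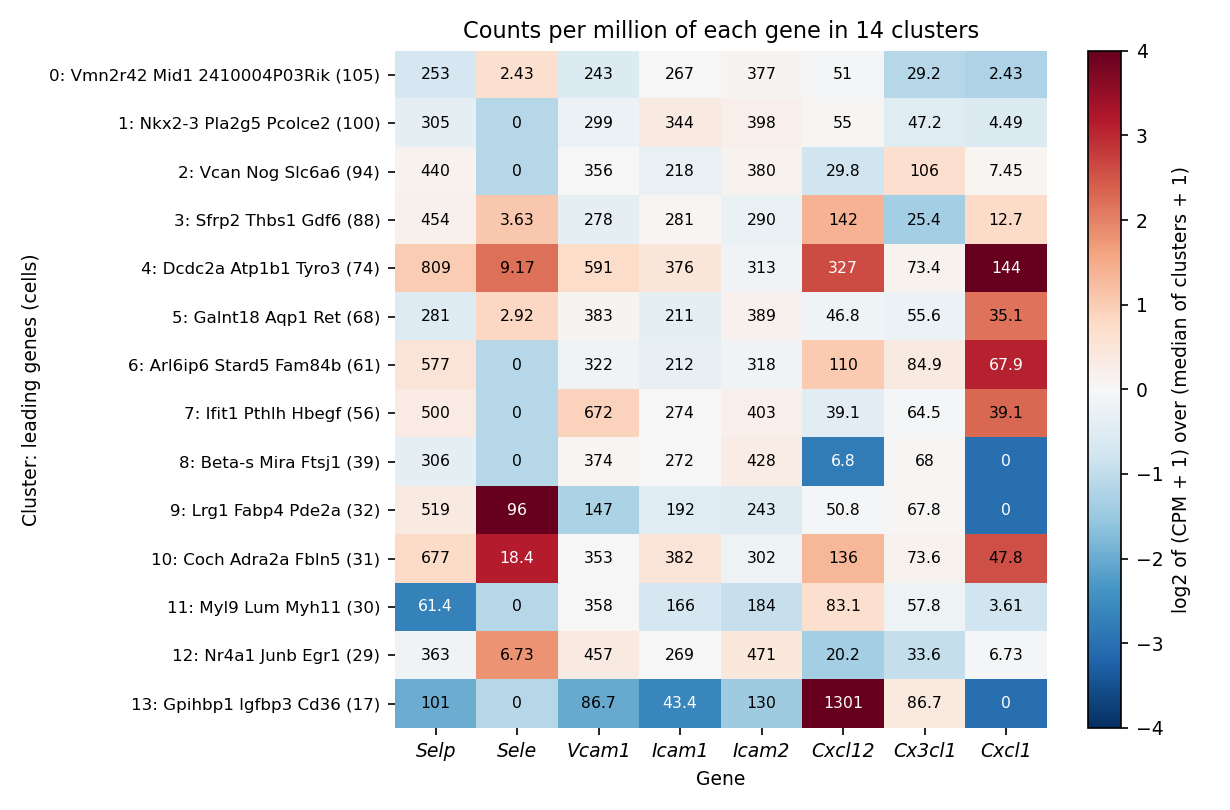
CPM of 8 genes in 14 clusters, named by their leading genes that are not members, with the number of cells. Colour gives the log2 ratio to the median cluster (1 CPM added to both, colours end at 4 on either side). Cxcl1 and Selp peak in the cluster led by Dcdc2a, Cxcl12 in the one led by Gpihbp1 (1301 CPM) and Sele in the one led by Lrg1 (96.0 CPM).

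The 30 fibroblast or VSMC-like cells served as a comparison, although they had passed the same CD31 sort. Selp had 61.4 CPM in them against 456 CPM in the EC-like cells, Icam2 184 against 355 CPM, Icam1 166 against 287 CPM and Cxcl1 3.61 against 34.7 CPM. The exact Poisson intervals of these 4 genes did not overlap between the classes, which describes counting error and is no test. Vcam1, which smooth muscle cells can also make, had 358 against 379 CPM, Cx3cl1 57.8 against 60.2 CPM and Cxcl12 83.1 against 118 CPM, with overlapping intervals. These pooled values hide a spread between libraries, which gave 8 and 12 (ECKO-labelled) and 3 and 7 (ECWT-labelled) of the 30 cells. In that order Vcam1 had 74.9, 555, 746 and 74.8 CPM in them. Icam2 had 560 CPM in those of ECWT replicate 1, above the 285 CPM of that whole library, and 131 to 185 CPM in the others. The class held 0 Sele counts in 30 cells, which allows a share of up to 10% when set at 3 cells of the total (exact binomial upper limit 11.6%). Cdh5 and Vwf, endothelial genes, had 68.6 and 210 CPM there against 398 and 1737 CPM, and Pecam1 was found in 96.7% of these cells. Whether these counts come from the cells themselves, from doublets or from RNA of other cells was not tested. A count was found in 36.7% of these cells for Selp, 63.3% for Icam2, 56.7% for Icam1, 63.3% for Vcam1, 36.7% for Cxcl12 and 33.3% for Cx3cl1, against 70.2%, 77.5%, 63.6%, 65.4%, 25.9% and 22.5% of EC-like cells. Median depths were 7604 and 5246 counts. At the matched depth, which left 713 EC-like and 29 other cells, Selp was found in 57.7% against 17.7% of cells, Icam2 in 59.6% against 42.5%, Icam1 in 45.9% against 34.6% and Vcam1 in 50.2% against 46.4%. Cxcl12 was found in 17.7% of EC-like cells against 19.9% and Cx3cl1 in 13.4% against 16.6%, so that their shares were not higher in EC-like cells. The counts of this class give no background level, since its own expression was not told apart from RNA of other cells.

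A pair of lists without members were used to split the cells of each library at the median. In cells above the median of 34 genes of the NF-kB pathway and response, Vcam1 was found in 53.3% against 46.7% of cells below it, Cxcl1 in 6.69% against 4.28% and Cx3cl1 in 16.0% against 12%, each in the same direction in 4 of 4 libraries. Icam1 was found in 48.8% against 42.5%, in 3 of 4 libraries, and Icam2 in 58.7% against 58.3%, in 2 of 4. In cells above the median of 36 dissociation response genes, which digestion is known to induce, Cxcl12 was found in 20.5% against 15.4% in 4 of 4 libraries and Selp in 59.5% against 53.5% in 3 of 4. Icam1 was found in 47.9% against 43.4%, Cxcl1 in 6.75% against 4.22% and Cx3cl1 in 16.5% against 11.5%, each in 3 of 4 libraries. Vcam1 differed by 2.18 points in all, but by -10.5 points in ECKO replicate 1.

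Few genes followed a member across cells. Of 5918 genes found in 100 or more cells, 1 gene had a within-library Pearson correlation above 0.2 with Selp in each of the 4 libraries, which was Apoe, the gene of apolipoprotein E (mean r 0.29). For Icam2 this gene was Cytl1, a secreted cytokine-like protein (mean r 0.24). No gene reached it for Vcam1, Icam1, Cxcl12 or Cx3cl1, and the nearest for Cxcl12 was Thbs1, the gene of thrombospondin-1 (mean r 0.24, lowest 0.18). These correlations are over 140 to 246 cells that share a library and differ in depth.

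Other genes of leukocyte recruitment were read in the same fit. Of 20 other adhesion genes, 16 were tested, 0 were called and their median log2 fold change was 0.00, beside 0.00 for all genes tested. The most abundant were Pecam1, Cd34 (467 ± 65.0 CPM) and Esam (465 ± 63.6 CPM), both of them surface proteins of endothelial cells. Of the 35 other chemokines and cytokines in the table only 5 passed the filter and 0 were called. Csf1, the macrophage growth factor, had 194 ± 36 CPM, Cxcl16 61.0 ± 12.9 CPM and Il15 60.3 ± 25.9 CPM. Il15 had an unadjusted p of 0.0161 and an adjusted p of 0.900, with a log2 fold change of -0.91.

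Of 24 receptors and scavengers, 20 were tested and 0 called. Il6st, the shared signalling chain of the interleukin-6 family, had 548 ± 119 CPM, with 704 and 578 CPM in the libraries labelled Jag1 ECKO and 456 and 453 CPM in those labelled Jag1 ECWT. Its log2 fold change was 0.51, with an unadjusted p of 0.0154 and an adjusted p of 0.900 by edgeR. Cxcr2, the receptor of CXCL1, had 441, 477 and 542 CPM in ECKO replicate 2 and the libraries labelled Jag1 ECWT but 88.6 CPM in ECKO replicate 1. Adam10, a protease that sheds CX3CL1 and CXCL16, had 289 ± 34.7 CPM. Of the 34 NF-kB genes, 26 were tested and 0 called, with a median log2 fold change of 0.03, and the inhibitor Nfkbia had 191 ± 42.5 CPM. Of 7 leukocyte counter-receptors only Itga4, a VCAM-1 receptor chain, was tested, with 36.4 CPM in ECKO replicate 1 and 151, 157 and 200 CPM in the other libraries. The VSMC markers were higher in the ECKO-labelled mean for 10 of 10 genes, with 0 called and a median of 1.35, and they summed to 3499 and 1645 CPM in the libraries labelled Jag1 ECKO against 472 and 1336 CPM in the others. The dissociation genes were higher for 27 of 32 tested, with 0 called and a median of 0.31. The part of either list in the member differences was not tested.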

How the data were processed

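Single cells were read with SORT-seq, in which sorted cells lie in plate wells and transcripts are counted by unique molecular identifiers at their 3′ end. Per the study's methods and labels, the authors aligned reads to GRCm38 with STAR. The deposited values are estimated counts per gene and cell, that is, identifier numbers corrected for chance repeats within a pool of 4096. They were rounded to whole numbers, and inverting the correction gave whole numbers to within 3.64e-12. Cells with more than 1200 genes were kept, a minimum taken from the study, and doublets were not called. The study gives 991 cells after its quality control, the deposited table holds 991, and this minimum left 824 of them, so the cells are not the same set. Clusters came from Seurat 5.3.0 with 2000 variable genes, 12 principal components and a resolution of 2.3, the lowest that gave the study's number of 14 clusters, so names may differ from the study's. The fibroblast or VSMC-like cluster was named from its marker lists at 3-fold over the other cells. The EC-like clusters needed no such enrichment. They were named because 7 to 10 of the 10 endothelial markers stayed above a set fraction of their mean over all cells.

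Counts were summed per library and tested with edgeR 4.0.16 (quasi-likelihood test, TMM scaling, filterByExpr, Benjamini-Hochberg adjustment, threshold 0.05), with DESeq2 1.42.0 as an alternative. The fit was tested on simulated data. Intervals are exact Poisson or binomial at 95% and cover counting error only. At the matched depth of 2837 counts, the 10th percentile, shares are exact hypergeometric expectations, and shallower cells were left out (36 and 13 of the libraries labelled Jag1 ECKO, 13 and 20 of those labelled Jag1 ECWT). The members and the gene lists were chosen with earlier results of these data known. Besides the members and Jag1, genes were named as the 3 most abundant of a list, a called gene, or a correlate above 0.2 in each library, and for clusters by their leading genes. Cells named for a high count, Nr2f2, Cdh5 (as a marker of the sorted cells) and Thbs1 (a correlate below that minimum) were chosen after their values were seen. Alternatives covered scaling, filters, cell selections, thinning and each library left out. Replicate numbers follow the order of the libraries and name no animal.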

Additional observations from a re-analysis of the deposited data

How the results depend on the processing

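The count of 0 members changed between labels held under all 17 alternatives run. The number of all genes called was 2 with DESeq2, 127 with no low-count filter and 67 with no filter among EC-like cells, and from 0 to 417 when 1 library was left out (196 without ECKO replicate 1, 417 without ECKO replicate 2, 0 without either ECWT library), which leaves a single library in 1 arm that is assumed to vary like the other arm. The other 10 alternatives called 0. Jag1 was called in 5 of these 17 fits. Member fold changes took the other sign in 13 estimates, which fell in 7 of the 17 alternatives, among them that of Cxcl1, which was -0.65 in the main estimate. Icam1 was -0.011 with no scaling beyond totals, -0.0050 with more than 1500 genes and -0.0035 when thinned, and Selp was -0.029 with more than 1500 genes. Leaving out 1 library gave -0.30 to 0.27 for Vcam1, -0.19 to 0.21 for Icam1, -0.11 to 0.18 for Selp, 0.21 to 0.48 for Icam2, -1.35 to 0.42 for Cxcl1, -0.60 to 0.063 for Cxcl12 and -0.44 to 0.0025 for Cx3cl1.  The cause was not tested.

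Mean levels of the members moved by less than 1 SD under every alternative run, but without the cell with the most counts in each library the mean of Sele fell from 5.72 to 1.99 CPM and that of Ccl2 to 0. With all counts in place of the matched depth, shares rose to 64.7% for Vcam1, 63.2% for Icam1, 76.1% for Icam2, 68.9% for Selp, 9.60% for Cxcl1, 26.1% for Cxcl12 and 23.4% for Cx3cl1, since more counts per cell are seen. The number of pairs with a co-detection ratio above 1 was 16 to 20 under the alternatives, beside 17. Sele, in 12 cells, and Ccl2, in 1 cell, rest on too few cells for a difference to be judged. With no low-count filter edgeR gave Sele a log2 fold change of 1.42 (SE 0.77, adjusted p 0.933) and Ccl2 one of -2.46 (SE 3.41, adjusted p 0.933). Over the fits that held Sele, its fold change ran from 0.86 to 2.86. No paired analysis was possible because the replicate numbers follow accession order and pair no libraries.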

Other observations

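Genes of other cell types also differed between libraries. Beta-s, a haemoglobin beta chain gene of red blood cells, gave 83.7 CPM in ECKO replicate 1 and 0 counts in the other 3 libraries, and 45 cells held a count. Nr2f2, the venous transcription factor, had 106 and 69.7 CPM in the libraries labelled Jag1 ECKO and 16.3 and 22.1 CPM in those labelled Jag1 ECWT, a log2 fold change of 2.14 (SE 0.30) with an adjusted p of 0.296 by edgeR and 0.0208 by DESeq2. Over all alternatives of that fit its adjusted p ran from 1.76e-14 to 1.00. Fabp4, a fatty acid carrier of capillary endothelium, had 631 CPM in ECKO replicate 1 and 119 to 168 CPM in the other libraries. Myh11, the smooth muscle myosin heavy chain, had 490 and 202 CPM in the libraries labelled Jag1 ECKO and 1.16 and 152 CPM in those labelled Jag1 ECWT. The share of cells with 4 or more of the 8 adhesion and chemokine genes other than Ccl2, before thinning, was 39.1% and 52.1% in the libraries labelled Jag1 ECKO and 43.6% and 45.5% in those labelled Jag1 ECWT, and the same libraries had median depths of 4212, 6518, 5577 and 5216 counts per cell.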
